A study of Mus musculus with 6 samples.

Results

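The genes described here are 30 mouse genes of cholesterol synthesis, uptake and efflux. They were named from the pathway, with earlier results of these data known. They were followed in cultured tail tissue fibroblasts on 6 one-colour Agilent arrays. Of the 56605 non-control probes on the array, 48 matched a member through the probe's accession, and 29 of the 30 members had at least 1 such probe. No probe matched Acat2, an acetyl-CoA acetyltransferase, so it is not analysed here. All 29 passed the filter on dim probes among 23060 genes tested, and 28 of them were well above background on all 6 arrays. The exception was Insig1, which was well above background on 1 of the 2 control arrays and on all 4 others.

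All cells came from C57BL/6 mice with a floxed (LH2F/F) allele of lysyl hydroxylase 2, encoded by Plod2, and a CAG-Cre transgene, which the broadly active CAG promoter drives. The labels give the genotype as LH2 cKO for every group, controls included. The 2 control samples were kept in tamoxifen (-) medium. The 2 samples labelled LH2 cKO_no.1, here no.1, had 24 h of tamoxifen and then tamoxifen (+) medium. The 2 samples labelled LH2 cKO_no.2, here no.2, had 24 h of tamoxifen and then tamoxifen (-) medium. No group had tamoxifen with an intact Plod2 gene, so tamoxifen, time in culture and deletion cannot be told apart in a comparison with control. Tail pieces were grown as explants on collagen I in medium with 10% serum. Whether a group's arrays represent separate cultures or animals is not said in the labels, and p-values then measure no more than how far these samples differ, possibly for technical reasons.

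Cholesterol is built from acetyl-CoA through mevalonate and isoprenoid intermediates, which are joined to squalene, closed to lanosterol and trimmed to cholesterol. When sterol in the endoplasmic reticulum is low, SCAP carries the transcription factor SREBP2 to the Golgi for cleavage, and the released factor activates genes of synthesis and uptake, while INSIG proteins hold SCAP back when sterol is plentiful. Oxysterols made when cholesterol is abundant bind the LXR receptors, which activate the efflux transporters ABCA1 and ABCG1 and the ubiquitin ligase MYLIP.

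The promoters of a few members are shown to set members that were called higher beside one that was called lower. Each is the 250 bases before the transcription start in RefSeq (GRCm38.p6), 5′ to 3′ on the gene's strand. Capitals mark CCAAT, the box bound by NF-Y, or ATTGG, the same box on the other strand, and the sterol regulatory element core TCACNCCAC. Hmgcs1 lies at chr13:119690101-119690350 on the plus strand, Idi1 at chr13:8885356-8885605 (plus), Msmo1 at chr8:64733579-64733828 (minus), Srebf2 at chr15:82147019-82147268 (plus) and Abca1 at chr4:53159896-53160145 (minus). The first 4 genes were higher after tamoxifen, and Abca1 was lower in no.1.
Hmgcs1: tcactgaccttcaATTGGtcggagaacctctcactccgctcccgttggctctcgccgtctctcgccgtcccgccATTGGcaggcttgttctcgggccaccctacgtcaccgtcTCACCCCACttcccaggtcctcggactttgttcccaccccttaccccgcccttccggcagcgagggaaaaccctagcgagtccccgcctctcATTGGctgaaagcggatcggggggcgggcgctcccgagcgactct
Idi1: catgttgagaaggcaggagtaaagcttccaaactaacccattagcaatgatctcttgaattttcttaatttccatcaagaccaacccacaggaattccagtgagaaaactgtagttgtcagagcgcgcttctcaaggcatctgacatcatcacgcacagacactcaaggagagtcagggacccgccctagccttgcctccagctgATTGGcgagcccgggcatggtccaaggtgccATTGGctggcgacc
Msmo1: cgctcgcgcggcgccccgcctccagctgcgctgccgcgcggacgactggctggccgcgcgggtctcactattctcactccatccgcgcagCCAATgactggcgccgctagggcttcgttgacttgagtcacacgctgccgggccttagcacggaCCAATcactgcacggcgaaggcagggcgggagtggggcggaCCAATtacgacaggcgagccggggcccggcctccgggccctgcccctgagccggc
Srebf2: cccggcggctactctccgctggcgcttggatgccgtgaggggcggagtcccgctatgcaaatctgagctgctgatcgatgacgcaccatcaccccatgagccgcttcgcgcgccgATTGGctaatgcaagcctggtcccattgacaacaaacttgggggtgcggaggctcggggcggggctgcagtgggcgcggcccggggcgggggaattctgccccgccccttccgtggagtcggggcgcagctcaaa
Abca1: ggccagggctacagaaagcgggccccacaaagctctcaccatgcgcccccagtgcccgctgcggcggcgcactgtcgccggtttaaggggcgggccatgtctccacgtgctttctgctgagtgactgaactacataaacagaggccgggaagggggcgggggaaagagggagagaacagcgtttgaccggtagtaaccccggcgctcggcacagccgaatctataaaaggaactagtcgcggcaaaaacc

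Of the members, 24 had a promoter in the table, and 19 of these (79.2%) held CCAAT on either strand, against 33.8% of all 32851 promoters and 37.5% of the 27025 genes with one. The 5 without it were Acat2, Scap, Nr1h2, Nr1h3 and Abca1. In no.1 the box was in all 12 members with a promoter that were called higher, in all 6 that were not called, and in 1 of the 5 called lower, which was Ebp. In no.2 it was in all 12 called higher, in 7 of the 9 not called and in 0 of the 2 called lower, so the box was not particular to the members called higher. The printed Hmgcs1 promoter held 3 boxes and the printed Abca1 promoter none. The exact sterol regulatory element core stood in 1 of the 24 members, Hmgcs1, at bases 137 to 129 before the start. It was in 1.05% of all promoters and 1.22% of the genes with one. Imperfect cores were not searched, so a promoter without a match may still hold such an element. Exact copies of AGGTCA repeated in the same orientation with 4 bases between, the strictest form of the LXR element DR4, were in none of the 24 and in 0.0152% of all promoters. Imperfect repeats were not searched, so nothing follows from this about LXR at these promoters. CCAAT and the sterol core do not overlap in the printed sequences, both strands were searched, and a match is a description of letters and not of a bound site. Fdps, Fdft1, Sqle, Stard4, Abcg1 and Scarb1 were without an entry.

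Facts of the whole data set bear on every value below. The share of probes well above background was 44.2% to 45.7% in control, 53.4% to 53.5% in no.1 and 48.4% to 48.6% in no.2. The 75th percentile of the signal, set against 9 spike-in probes, was 3.52 to 3.73 times its control mean in no.1 and 1.93 to 2.68 times in no.2. Levels below were therefore read on a relative scale, as the log2 processed signal relative to the 75th percentile of that array, where 0 is that percentile. They compare 1 gene between arrays and not 1 gene with another. All arrays lay on 1 slide and came from 1 scan, and slide row and group cannot be told apart against control, nor slide column and group between no.1 and no.2. Plod2 itself gave signals of 42.1 and 34.9 in the controls, 31.8 and 17.1 on the no.1 arrays, and 13.3 and 8.59 in no.2. On the relative scale the log2 change of Plod2 was -2.13 (SE 0.34, limma adjusted p = 0.00613) in no.1 and -2.57 (SE 0.34, adjusted p = 0.00768) in no.2. Scaled to the spike-ins, the median change of all genes was 1.74 in no.1 and 1.08 in no.2, so the size of the Plod2 change depends on the scaling. Whether its probe lies within the deleted part is not known from the sources used here. Fibroblast markers were present, with 11 of 12 well above background in every group. Lum, which encodes lumican, was the marker not well above background on any array.

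Most genes of cholesterol synthesis were higher after tamoxifen, with or without tamoxifen in the later medium. The LXR receptor genes Nr1h2 and Nr1h3 and the efflux transporter genes Abca1 and Abcg1 were called lower in no.1 on the relative scale, and of these only Nr1h3 was called in no.2. Scaled to the spike-ins, Nr1h2 was higher in no.1 (0.81, adjusted p = 0.0196) and no.2 (0.67, adjusted p = 0.0479), and Nr1h3 had a positive sign in no.2 (0.31, adjusted p = 0.401). In no.1 against control, 16 of 29 members were called higher and 6 lower at a limma adjusted p under 0.05, and 7 were not called. Over all genes tested, 47.8% were called, 21.4% higher and 26.4% lower. In no.2 against control, 16 were called higher and 2 lower, beside 12.1% and 16.2% of all genes and 28.3% in either direction. The median log2 change of the members was 0.81 in no.1 and 1.31 in no.2, and that of all genes tested was -0.116 and -0.103. As the members were chosen with earlier results known, setting them beside all genes is a description and not a test. Both comparisons with control share the control arrays, so their likeness is no second line of evidence. As RNA came from whole cultures, fewer cells of a type and less RNA per cell cannot be told apart.

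**Figure D1:**
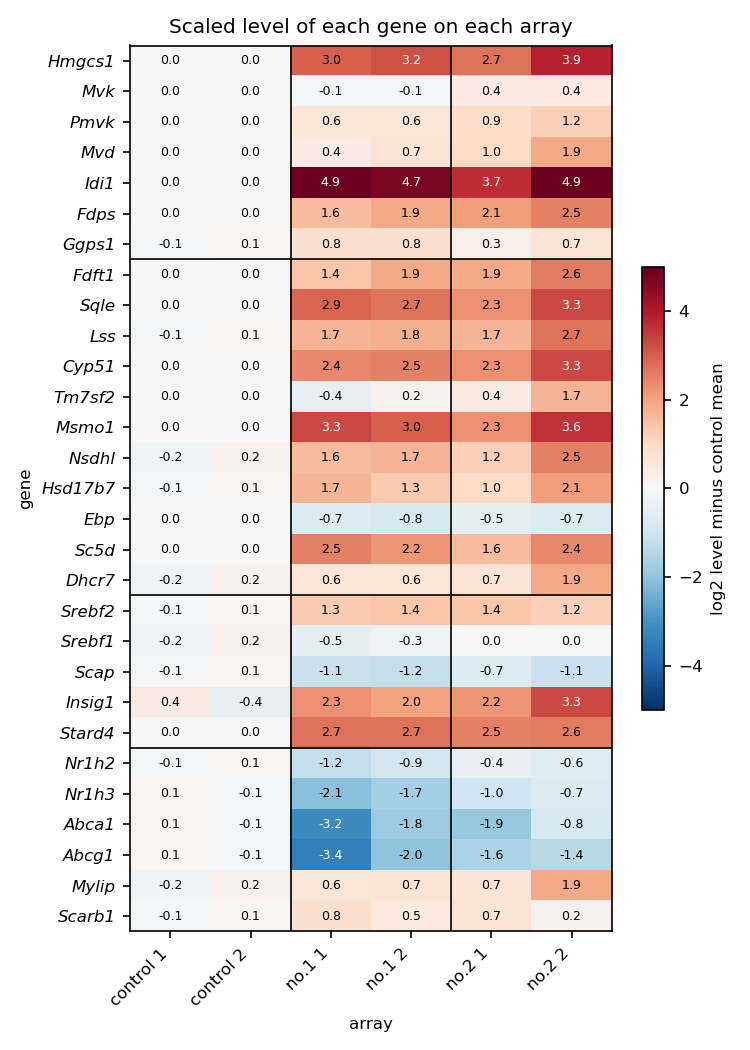
Scaled log2 level of each of 29 genes (vertical axis, in blocks by role from top to bottom: mevalonate and isoprenoid steps, squalene and sterol steps, sterol sensing, regulation and transfer, and LXR receptors with uptake and efflux genes) on each of 6 arrays (horizontal axis), minus the control mean, with the value printed in each cell. Synthesis genes are mostly above control on all 4 arrays of no.1 and no.2, and Nr1h2, Nr1h3, Abca1 and Abcg1 are below it on all 4 on this relative scale, on which Nr1h2 in both groups and Nr1h3 in no.2 differ in sign from the spike-in scale.

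Against control, all 4 pairs of arrays stood on the higher side for 20 members in no.1 and 22 in no.2, and on the lower side for 8 and 6. Such separation was common on these arrays, at 36.7% higher and 44.7% lower over all genes in no.1 and 33.2% and 41.3% in no.2. Among the 18 enzymes of synthesis measured of 19, 13 were called higher in no.1 with a median log2 change of 1.66, and 1 was called lower. In no.2 the same count, 13, was called higher, none lower, with a median of 1.98. Over all genes 21.4% were called higher in no.1 and 12.1% in no.2.

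The mevalonate and isoprenoid enzymes carry acetyl units to the prenyl diphosphates, and 5 of the 7 measured were called higher in each comparison with control. The share over all genes was 21.4% in no.1 and 12.1% in no.2. Idi1, the isomerase of isopentenyl diphosphate, had the largest change of all members. Its scaled levels were -1.39 and -1.30 in the controls, 3.53 and 3.35 on the no.1 arrays, and 2.39 and 3.53 in no.2. Both tamoxifen groups stood far above both controls and overlapped each other. The log2 change was 4.78 (SE 0.38, 27.5-fold, adjusted p = 0.00135) in no.1 and 4.30 (SE 0.38, 19.7-fold, adjusted p = 0.0028) in no.2 by limma. Hmgcs1, the synthase that makes HMG-CoA, had levels of 2.00 and 1.95 in the controls, 4.96 and 5.16 on the no.1 arrays, and 4.63 and 5.85 in no.2. It was 8.48-fold higher in no.1 (log2 3.08, SE 0.40, adjusted p = 0.00376) and 9.57-fold higher in no.2 (log2 3.26, SE 0.40, adjusted p = 0.0061). The no.2 arrays of Hmgcs1 lay on both sides of the no.1 arrays. Fdps, which makes farnesyl diphosphate, had levels of 4.65 and 4.72 in the controls, 6.33 and 6.62 on the no.1 arrays, and 6.75 and 7.18 in no.2. Its change was 1.79 (SE 0.23, adjusted p = 0.00379) in no.1 and 2.28 (SE 0.23, adjusted p = 0.00395) in no.2. Both no.2 arrays of Fdps lay above both no.1 arrays.

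The other mevalonate enzymes moved less. Pmvk, phosphomevalonate kinase, had levels of 4.06 and 4.09 in the controls, 4.66 and 4.67 on the no.1 arrays, and 4.95 and 5.24 in no.2, so the 3 groups did not overlap. Its change was 0.59 (SE 0.20, adjusted p = 0.0493) in no.1 and 1.03 (SE 0.20, adjusted p = 0.0174) in no.2, and its other probe gave 0.65 and 1.10. Mvd, mevalonate diphosphate decarboxylase, was at 1.15 and 1.16 in the controls, 1.52 and 1.83 on the no.1 arrays, and 2.11 and 3.06 in no.2. All 4 tamoxifen arrays of Mvd were above both controls, but only the no.2 change of 1.44 (SE 0.34, adjusted p = 0.0288) was called, and the no.1 change was 0.52 (SE 0.34, adjusted p = 0.241). Ggps1, which makes geranylgeranyl diphosphate, was at 0.83 and 0.96 in the controls, 1.67 and 1.74 on the no.1 arrays, and 1.23 and 1.60 in no.2. Its change was 0.81 (SE 0.21, adjusted p = 0.024) in no.1 and 0.52 (SE 0.21, adjusted p = 0.112) in no.2. The other 4 probes of Ggps1 gave smaller no.1 changes, from 0.05 to 0.64, and the mean of its probes gave 0.46 (adjusted p = 0.0936). Mvk, mevalonate kinase, was at 5.17 and 5.09 in the controls, 4.98 and 5.04 on the no.1 arrays, and 5.50 and 5.54 in no.2. Both no.1 arrays of Mvk were below both controls and both no.2 arrays above them, yet neither change was called, at -0.12 (SE 0.18, adjusted p = 0.606) and 0.39 (SE 0.18, adjusted p = 0.149). Leaving out any 1 array of control or no.1 ended the no.1 calls of Pmvk (adjusted p 0.106 to 0.217) and Ggps1 (0.073 to 0.141). Leaving out either control array ended the no.2 call of Pmvk (0.102 and 0.103), and leaving out any 1 array other than no.2 array 1 ended that of Mvd (0.0511 to 0.108).

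From squalene to cholesterol, 8 of the 11 measured enzymes were called higher in each comparison, beside 21.4% of all genes in no.1 and 12.1% in no.2. Fdft1, squalene synthase, had scaled levels of 2.83 and 2.92 in the controls, 4.29 and 4.77 on the no.1 arrays, and 4.76 and 5.47 in no.2. Its change was 1.66 (SE 0.31, adjusted p = 0.00855) in no.1 and 2.24 (SE 0.31, adjusted p = 0.00798) in no.2. Both groups of Fdft1 lay above control and overlapped each other by a narrow margin. Sqle, the squalene epoxidase that is a rate-controlling step, was at 2.06 and 2.09 in the controls, 4.95 and 4.79 on the no.1 arrays, and 4.40 and 5.36 in no.2. It rose by 2.79 (SE 0.33, adjusted p = 0.00328) in no.1 and 2.81 (SE 0.33, adjusted p = 0.00566) in no.2. The no.2 arrays of Sqle enclosed the no.1 arrays. Lss, which closes the ring to lanosterol, was at 0.84 and 0.97 in the controls, 2.56 and 2.75 on the no.1 arrays, and 2.60 and 3.57 in no.2. It rose by 1.75 (SE 0.34, adjusted p = 0.00965) and 2.18 (SE 0.34, adjusted p = 0.0104), and a second probe gave 1.87 and 2.17. The third probe of Lss was not well above background on either control array. Cyp51, the lanosterol demethylase, was at 0.78 and 0.76 in the controls, 3.14 and 3.27 on the no.1 arrays, and 3.07 and 4.09 in no.2. It rose by 2.43 (SE 0.34, adjusted p = 0.00454) and 2.81 (SE 0.34, adjusted p = 0.00608), and its other probe gave 2.15 and 2.51.

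Msmo1, the methylsterol monooxygenase, had the largest change of the sterol steps in no.1. Its levels were 2.13 and 2.14 in the controls, 5.42 and 5.12 on the no.1 arrays, and 4.43 and 5.72 in no.2, and the changes were 3.14 (SE 0.42, 8.79-fold, adjusted p = 0.00403) and 2.94 (SE 0.42, 7.70-fold, adjusted p = 0.0089). A second Msmo1 probe gave 3.39 and 3.28. Sc5d, the sterol desaturase, was at 0.86 and 0.92 in the controls, 3.41 and 3.10 on the no.1 arrays, and 2.54 and 3.34 in no.2, and rose by 2.37 (SE 0.30, adjusted p = 0.00373) and 2.05 (SE 0.30, adjusted p = 0.00967). Nsdhl, a sterol dehydrogenase that acts with Msmo1, was at -0.48 and -0.04 in the controls, 1.37 and 1.40 on the no.1 arrays, and 0.99 and 2.28 in no.2. Its changes were 1.65 (SE 0.43, adjusted p = 0.0233) and 1.90 (SE 0.43, adjusted p = 0.0256). Hsd17b7, the 3-ketosterol reductase of this pathway, was at 1.39 and 1.52 in the controls, 3.16 and 2.78 on the no.1 arrays, and 2.47 and 3.58 in no.2. Its changes were 1.52 (SE 0.38, adjusted p = 0.0212) and 1.57 (SE 0.38, adjusted p = 0.0313). All these genes stood above both controls on all 4 tamoxifen arrays. Leaving out any 1 array of control or no.1 ended the no.1 calls of Nsdhl (adjusted p 0.0532 to 0.101) and Hsd17b7 (0.0561 to 0.112). Leaving out any 1 array other than no.2 array 1 ended their no.2 calls, at 0.051 to 0.102 for Nsdhl and 0.0553 to 0.113 for Hsd17b7.

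Among the remaining steps, 3 did not follow the rest. Ebp, the sterol isomerase, was lower on the relative scale, at 5.19 and 5.20 in the controls, 4.52 and 4.39 on the no.1 arrays, and 4.74 and 4.52 in no.2. Its change was -0.74 (SE 0.19, adjusted p = 0.0233) in no.1 and -0.57 (SE 0.19, adjusted p = 0.0722) in no.2, with -0.60 and -0.53 from a second probe. The unscaled signals of Ebp ran the other way, at 1250 and 1240 in the controls, 2200 and 1780 on the no.1 arrays, and 1470 and 1310 in no.2, so its direction depends on the scaling. Scaled to the spike-ins its no.1 change was 1.11 (adjusted p = 0.00423), and the call also ended without any 1 array of control or no.1 (adjusted p 0.0586 to 0.136). Tm7sf2, a sterol reductase, was at 1.59 and 1.56 in the controls, 1.16 and 1.82 on the no.1 arrays, and 1.97 and 3.23 in no.2. The no.1 arrays of Tm7sf2 lay on both sides of control (-0.09, SE 0.45, adjusted p = 0.878) and the no.2 arrays above it (1.02, SE 0.45, adjusted p = 0.129). Without no.2 array 1 that change was 1.65 (adjusted p = 0.0343). Dhcr7, which makes the last reduction to cholesterol, was at -0.61 and -0.13 in the controls, 0.23 and 0.18 on the no.1 arrays, and 0.34 and 1.52 in no.2. All 4 tamoxifen arrays of Dhcr7 were above control, and the changes of 0.57 (SE 0.41, adjusted p = 0.28) and 1.30 (SE 0.41, adjusted p = 0.0588) were not called. Without no.2 array 1 the latter was 1.89 (adjusted p = 0.0204).

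**Figure D2:**
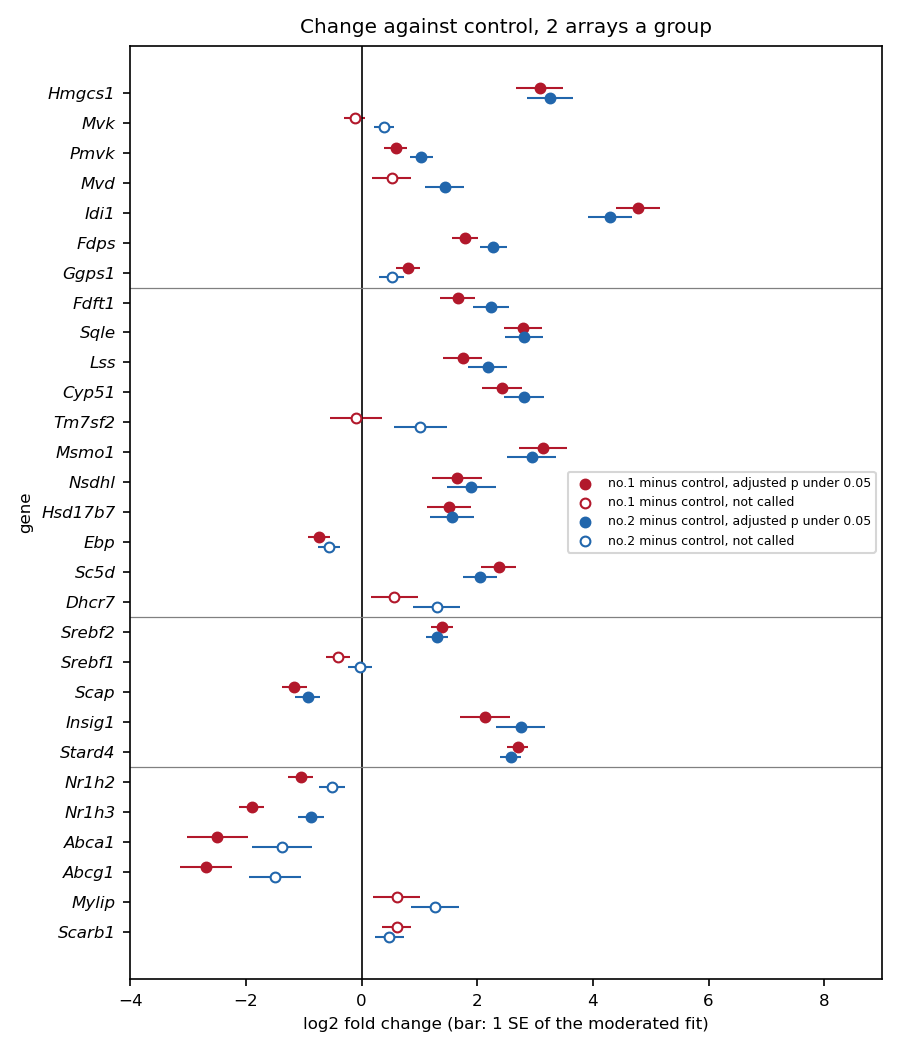
Log2 fold change against control (horizontal axis) of 29 genes (vertical axis) in no.1 (red) and no.2 (blue), 2 arrays a group. Bars are 1 SE of the moderated fit, filled points have a limma adjusted p under 0.05 and open points do not. Idi1 is farthest to the right at 4.78 and 4.30, and Abcg1 farthest to the left at -2.69 and -1.49.

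The sensing genes parted in direction. Srebf2, which encodes SREBP2, the main activator of this pathway, rose, and its escort Scap fell on the relative scale but not when scaled to the spike-ins. Srebf2 was at -0.01 and 0.15 in the controls, 1.41 and 1.52 on the no.1 arrays, and 1.46 and 1.29 in no.2, and changed by 1.40 (SE 0.19, adjusted p = 0.00444) and 1.31 (SE 0.19, adjusted p = 0.00967). Without either control array its no.2 adjusted p was 0.0668 and 0.0572. Both tamoxifen groups of Srebf2 stood above control and overlapped each other. Scap was at 4.53 and 4.67 in the controls, 3.50 and 3.39 on the no.1 arrays, and 3.89 and 3.45 in no.2, and changed by -1.16 (SE 0.22, adjusted p = 0.00981) and -0.93 (SE 0.22, adjusted p = 0.0303). The unscaled signals of Scap were 789 and 858 in the controls, 1080 and 889 on the no.1 arrays, and 815 and 623 in no.2, and scaled to the spike-ins Scap was higher, by 0.70 (adjusted p = 0.0238) and 0.25 (adjusted p = 0.336). Leaving out control array 2 ended the no.1 call of Scap (adjusted p = 0.0669). Leaving out control array 1, control array 2 or no.2 array 2 ended its no.2 call (0.119, 0.168 and 0.0751). Srebf1, whose SREBP1 products drive fatty acid genes more than sterol genes, was at 4.51 and 4.83 in the controls, 4.18 and 4.33 on the no.1 arrays, and 4.62 and 4.67 in no.2. The changes of Srebf1 were not called, at -0.41 (SE 0.21, adjusted p = 0.143) and -0.03 (SE 0.21, adjusted p = 0.931).

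Insig1, which retains SCAP in the endoplasmic reticulum and is itself a target of SREBP2, was dim in control. Its signals were 6.31 and 3.44 in the controls, 63.4 and 46.6 on the no.1 arrays, and 35.7 and 75.2 in no.2, and both tamoxifen groups were well above both controls. On the relative scale it rose by 2.13 (SE 0.43, adjusted p = 0.0111) and 2.75 (SE 0.43, adjusted p = 0.0109). With normexp background correction, which compresses dim signals, the changes were 0.12 (adjusted p = 0.569) and 0.46 (adjusted p = 0.0859), and the no.1 call also ended without control array 2 (0.0504) or no.1 array 1 (0.069). Stard4, a carrier that moves sterol between membranes, had the lowest p of the members. It was at -0.98 and -1.05 in the controls, 1.73 and 1.65 on the no.1 arrays, and 1.51 and 1.61 in no.2, and rose by 2.70 (SE 0.18, adjusted p = 0.000885) and 2.58 (SE 0.18, adjusted p = 0.00155). A second Stard4 probe, not well above background on either control array, gave 2.72 and 2.49. The arrays of each group of Stard4 lay close together, and both no.1 arrays were slightly above both no.2 arrays.

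The last block holds the LXR receptors, the efflux transporters they activate, Mylip and Scarb1. On the relative scale in no.1, 4 of the 6 members of this block were called lower and none higher, with a median log2 change of -1.48. Over all genes 26.4% were called lower in no.1. In no.2, 1 of the 6, Nr1h3, was called lower, beside 16.2% of all genes, with a median of -0.69. Abcg1, which passes cholesterol to high-density lipoprotein, had signals of 33.1 and 30.2 in the controls, 8.52 and 20.0 on the no.1 arrays, and 17.4 and 19.9 in no.2. Its change was -2.69 (SE 0.45, adjusted p = 0.00656) in no.1 and -1.49 (SE 0.45, adjusted p = 0.0527) in no.2. All 4 tamoxifen arrays of Abcg1 were below both controls even in unscaled signal. Without either no.1 array the no.2 change of Abcg1, unchanged at -1.49, had an adjusted p of 0.0148. Abca1, which passes cholesterol to lipid-poor apolipoprotein, had signals of 34.3 and 30.2 in the controls, 10.3 and 22.6 on the no.1 arrays, and 14.0 and 30.2 in no.2. Its change was -2.49 (SE 0.52, adjusted p = 0.012) in no.1 and -1.37 (SE 0.52, adjusted p = 0.0928) in no.2. The no.1 arrays of Abca1 were below both controls in unscaled signal, and no.2 array 2 was level with the lower control. Without no.1 array 1 the no.1 change of Abca1 was -1.84 (adjusted p = 0.0568), and a second probe was not well above background on any array.

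Nr1h3, the receptor LXR-alpha, had signals of 49.4 and 44.6 in the controls, 31.7 and 35.3 on the no.1 arrays, and 37.4 and 47.8 in no.2. Its change was -1.90 (SE 0.22, adjusted p = 0.00323) in no.1 and -0.87 (SE 0.22, adjusted p = 0.0358) in no.2, with -1.91 and -0.85 from a second probe. Scaled levels of Nr1h3 did not overlap between any of the groups, at 0.53 and 0.40 in the controls, -1.60 and -1.27 on the no.1 arrays, and -0.56 and -0.25 in no.2. Leaving out any 1 array of control or no.2 ended the no.2 call of Nr1h3 (adjusted p 0.058 to 0.18). Nr1h2, the receptor LXR-beta, had signals of 976 and 1040 in the controls, 1210 and 1390 on the no.1 arrays, and 1220 and 1110 in no.2. On the relative scale it was lower, by -1.05 (SE 0.22, adjusted p = 0.0121) in no.1 and -0.51 (SE 0.22, adjusted p = 0.124) in no.2. The direction of Nr1h2 depends on the scaling, since scaled to the spike-ins its change was 0.81 (adjusted p = 0.0196) in no.1 and 0.67 (adjusted p = 0.0479) in no.2. Without control array 1, control array 2 or no.1 array 1 the no.1 call of Nr1h2 ended (adjusted p 0.0607, 0.0804 and 0.0523). Mylip, the LXR-induced ligase that degrades lipoprotein receptors, did not fall with the transporters. It was at -1.17 and -0.70 in the controls, -0.38 and -0.26 on the no.1 arrays, and -0.26 and 0.94 in no.2, with changes of 0.61 (SE 0.41, adjusted p = 0.258) and 1.27 (SE 0.41, adjusted p = 0.064). Without no.2 array 1 the latter was 1.88 (adjusted p = 0.0208). Scarb1, the receptor for high-density lipoprotein, was at 3.07 and 3.18 in the controls, 3.90 and 3.58 on the no.1 arrays, and 3.85 and 3.37 in no.2. All 4 tamoxifen arrays of Scarb1 were above control, with changes of 0.61 (SE 0.25, adjusted p = 0.085) and 0.48 (SE 0.25, adjusted p = 0.18) that were not called.

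**Figure D3:**
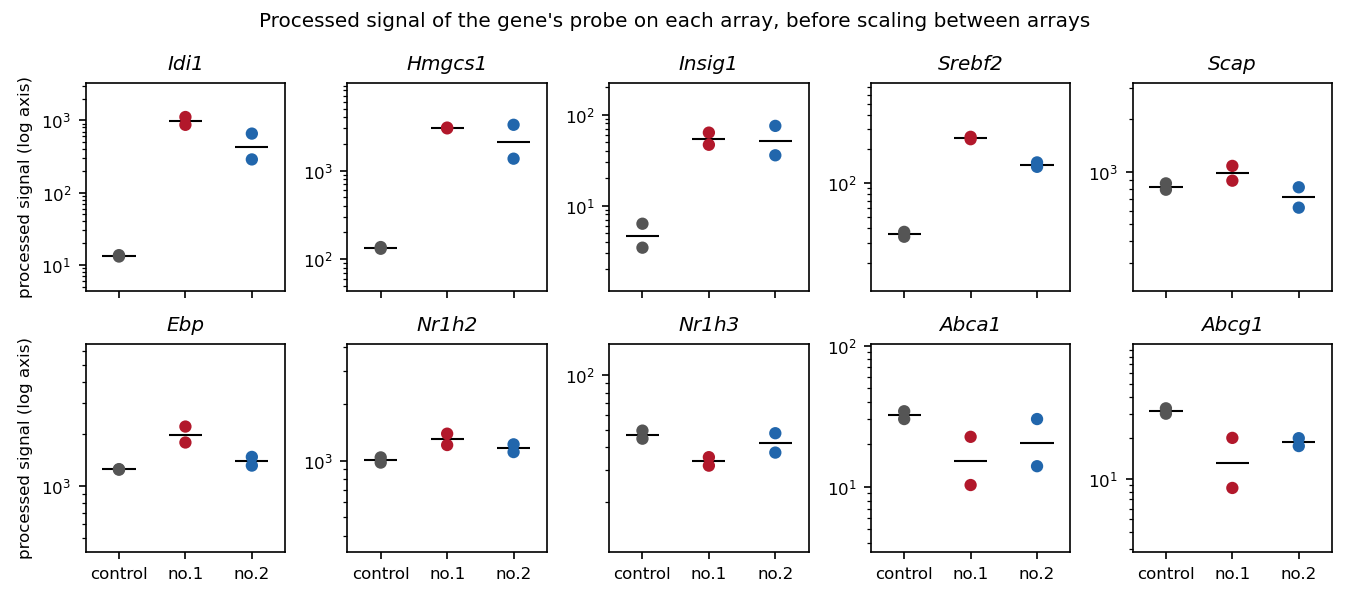
Processed signal (log axis) of 10 genes on each array before scaling between arrays, with points for the 2 arrays of control (grey), no.1 (red) and no.2 (blue) and a line at the geometric mean of each group. Idi1, Hmgcs1, Insig1 and Srebf2 are above control on all 4 tamoxifen arrays, Abcg1 is below it on all 4, and Scap, Ebp and Nr1h2 differ little or run opposite to their scaled levels.

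The scaling between arrays sets where 0 lies, and it matters most for the genes that fell. Scaled to the spike-ins, the median of all genes was 1.74 in no.1 and 1.08 in no.2 against control, and that of the members 2.67 and 2.50. Idi1 was then higher by 6.64 and 5.49 and Stard4 by 4.56 and 3.76. Abcg1 kept a negative sign (-0.83, adjusted p = 0.135 in no.1, and -0.30, adjusted p = 0.577 in no.2), as did Abca1 (-0.64, adjusted p = 0.345, and -0.19, adjusted p = 0.789). The no.1 change of Nr1h3 was -0.04 (adjusted p = 0.902) and its no.2 change 0.31 (adjusted p = 0.401). Over all genes 18788 were called higher and 475 lower in no.1 on that scale, and 14444 and 622 in no.2, against 4940 and 6081, and 2790 and 3728, on the relative scale. Such spike-ins are meant to be added in equal amount, and whether the RNA input of the arrays was equal was not tested. With normexp correction the same split was 5806 and 10329 in no.1 and 3036 and 4897 in no.2, with the median probe 7564 and 3296, and 4840 and 2176. Without a filter on dim probes it was 5115 and 19758 in no.1 and 3030 and 13446 in no.2.

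**Figure D4:**
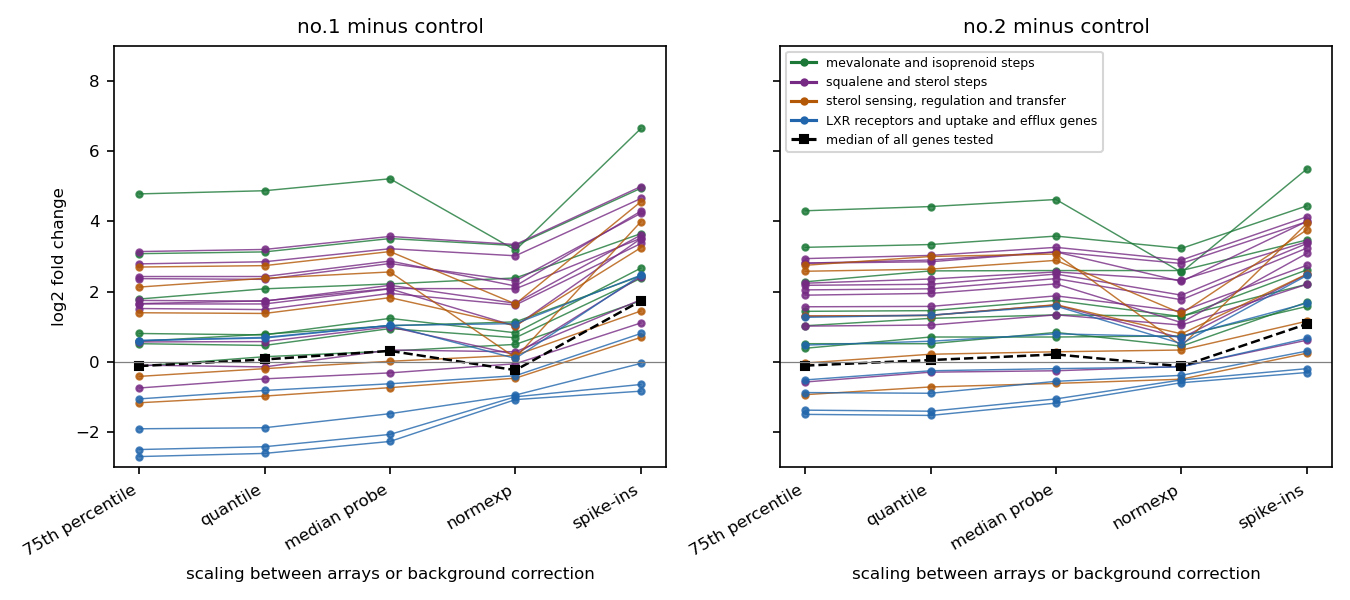
Log2 fold change against control (vertical axis) of the 29 genes under 5 ways to scale or correct the arrays (horizontal axis), in no.1 (left) and no.2 (right), coloured by role, with the median of all genes tested as black squares. Under the spike-ins every line lies above its value at the 75th percentile, as does the median, and Abca1 and Abcg1 stay below 0 in both panels.

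No.1 against no.2 is the comparison that the submitters' design text states, and it asks what continued tamoxifen in the medium changed. No gene of 23060 was called (0%) by limma, with 3825 at an unadjusted p under 0.05 and a smallest adjusted p of 0.206. Of the 29 members none was called, and 6 had an unadjusted p under 0.05. On the relative scale 22 of them lay on the lower side in no.1, as did 11753 of the 23060 genes. The median difference was -0.386 for the members and -0.0109 for all genes. Scaled to the spike-ins, 23 members lay on the higher side, with a median of 0.29, and the median of all genes was 0.662. The side on which most members lay thus depends on the scaling. Both no.1 arrays lay below both no.2 arrays for 11 members and above them for 2, Ggps1 and Stard4, beside 25.4% and 22.5% of all genes.

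Of the 4 blocks by role, the LXR block had the widest gap between the tamoxifen groups on the relative scale, with a median difference of -0.846. Abcg1 differed by -1.20 (95% interval -2.29 to -0.11, adjusted p = 0.285), and Abca1 by -1.12 (-2.39 to 0.14, adjusted p = 0.328). Nr1h3 differed by -1.03 (-1.58 to -0.48, adjusted p = 0.282), and Nr1h2 by -0.54 (-1.08 to -0.01, adjusted p = 0.3). All of these were lower in no.1 on the relative scale, and none passed the threshold. Scaled to the spike-ins, Nr1h2 differed by 0.13, while Abcg1 (-0.53), Abca1 (-0.45) and Nr1h3 (-0.36) kept a negative sign. Among the enzymes, Tm7sf2 differed by -1.11 (-2.20 to -0.02, adjusted p = 0.298), and Mvd by -0.91 (-1.74 to -0.09, adjusted p = 0.285). For the enzymes with the largest rises the intervals lay on both sides of 0. They ran from -1.15 to 0.80 for Hmgcs1, from -0.44 to 1.40 for Idi1 and from -0.83 to 0.79 for Sqle, so differences of more than 1.4 in log2 lie outside each. For Srebf2 the interval was -0.39 to 0.56 and for Stard4 -0.32 to 0.58.

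The arrays of a group differed more for these genes in no.2 than elsewhere. In no.2, array 2 stood above array 1 for 17 of the 18 enzymes, by a median of 0.96, while the median of all genes was -0.09. In no.1 array 2 was higher for 11 of 18 enzymes, by a median of 0.05, and in control for 14 of 18, by 0.04. Msmo1 and Nsdhl each differed by 1.29 between the no.2 arrays, Hmgcs1 by 1.22 and Idi1 by 1.14. Srebf2 (-0.17), Scap (-0.43), Scarb1 (-0.48) and Ebp (-0.21) were lower on no.2 array 2. Over the enzymes the median level above control was 1.46 and 2.47 in no.2 against 1.64 and 1.76 in no.1, so the groups overlap. The names of the deposited files carry 24 h for array 1 and 48 h for array 2 of each tamoxifen group and 0 h for the controls, whereas the labels give 24 h of tamoxifen for all 4. In no.1, where the file names carry the same hours, Abca1 (1.31) and Abcg1 (1.41) were higher on array 2. The part of time in these differences was not tested, as each time would be 1 array. The control arrays were closer to each other than the arrays of the other groups. Over all genes the scaled median absolute deviation of the array difference was 0.174 for the control pair, against 0.417 for no.1 and 0.485 for no.2.

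**Figure D5:**
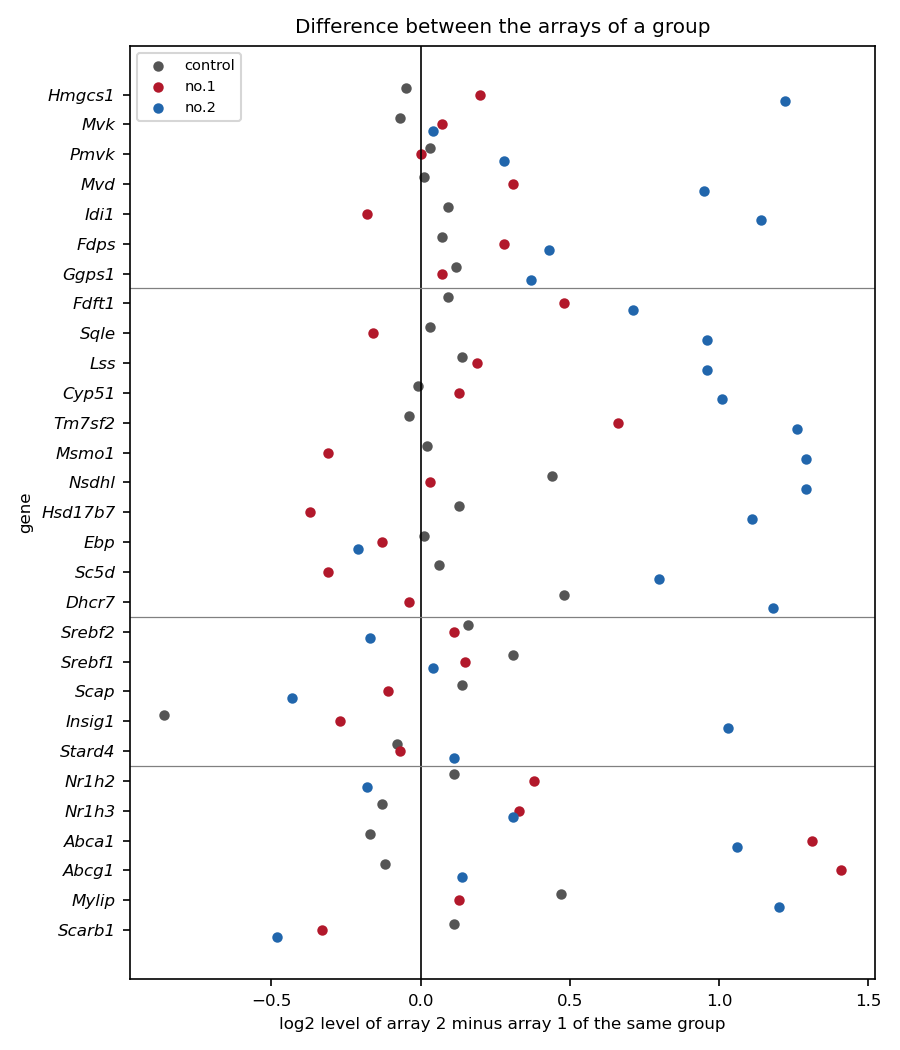
Difference in scaled log2 level between array 2 and array 1 of the same group (horizontal axis) for 29 genes (vertical axis), in control (grey), no.1 (red) and no.2 (blue). The blue points of most synthesis enzymes lie near 1, while grey and red points mostly lie near 0.

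Other genes of sterol metabolism, in 5 lists with 58 genes, were also read on the relative scale. Scaled to the spike-ins, the median change of all genes was 1.74 in no.1 and 1.08 in no.2. The changes of these lists on that scale are not given here, so the direction of a gene called lower may depend on the scaling. Of 53 measured, 9 were called higher and 11 lower in no.1, and 3 and 6 in no.2, with medians of -0.0644 and -0.0256. Each of these counts is a smaller share of the 53 than was called over all genes, where 21.4% were higher and 26.4% lower in no.1 and 12.1% and 16.2% in no.2. Among the 12 genes of sterol sensing and SREBP processing, 3 were called higher in no.1 and none in no.2. Tmem97, a sterol-regulated membrane protein, rose by 1.03 (SE 0.33, adjusted p = 0.0446), the ligase gene Rnf139 by 0.80 (SE 0.24, adjusted p = 0.0368) and Mbtps2, a protease that cleaves SREBP, by 0.73 (SE 0.20, adjusted p = 0.0293). Of 5 measured genes that supply other steps, 2 were called higher and 1 lower in each comparison. Lbr, which encodes a nuclear envelope protein with sterol reductase activity, rose by 2.53 (SE 0.26, adjusted p = 0.00232) in no.1 and 1.96 (SE 0.26, adjusted p = 0.0073) in no.2. Acat1, a thiolase, rose by 0.67 and 0.66 (SE 0.19, adjusted p = 0.0319 and 0.0482). Cyb5r3, a cytochrome b5 reductase, was lower on the relative scale, with -0.92 and -0.73 (SE 0.18, limma adjusted p = 0.0108 and 0.0337).

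The branches that lead from mevalonate to coenzyme Q, dolichol and protein prenylation held 3 called higher and 1 called lower of 12 in no.1, and none in no.2. Pdss1 and Pdss2, subunits of the enzyme that builds the coenzyme Q side chain, rose by 1.31 (SE 0.33, adjusted p = 0.0213) and 1.02 (SE 0.24, adjusted p = 0.0166). Pggt1b, a geranylgeranyl transferase subunit, rose by 0.80 (SE 0.26, adjusted p = 0.0492), and Dhdds, of dolichol synthesis, changed by -1.03 (SE 0.21, adjusted p = 0.0115). Of the 12 genes of sterol transport and storage, 1 was called higher and 3 lower in no.1, and 1 higher and 1 lower in no.2. Osbp, an oxysterol-binding exchanger, rose by 0.98 (SE 0.21, adjusted p = 0.014) and 1.30 (SE 0.21, adjusted p = 0.0122). Stard5, a sterol carrier related to Stard4, changed by -1.70 (SE 0.20, limma adjusted p = 0.00328) and -1.15 (SE 0.20, adjusted p = 0.0141). On the relative scale this was opposite to Stard4. Npc2, which takes cholesterol out of lysosomal lipoprotein, changed by -1.77 (SE 0.37, adjusted p = 0.0117) in no.1, and Stard3 by -0.80 (SE 0.20, adjusted p = 0.0213). Of 12 measured receptors, lipoprotein and oxysterol enzymes and transporters, none was called higher, and 6 were called lower in no.1 and 4 in no.2. The share called lower over all genes was 26.4% and 16.2%. Vldlr, a lipoprotein receptor, changed by -1.24 (SE 0.20, adjusted p = 0.0062) and -1.56 (SE 0.20, adjusted p = 0.0069). Lrpap1, a chaperone of such receptors, changed by -1.77 (SE 0.20, adjusted p = 0.0031) and -1.29 (SE 0.20, adjusted p = 0.011). Hsd3b7, of bile acid synthesis, changed by -2.78 (SE 0.46, adjusted p = 0.00666) and -1.75 (SE 0.46, adjusted p = 0.0384). Abcg4, a relative of Abcg1, changed by -1.19 (SE 0.25, adjusted p = 0.0123) and -0.97 (SE 0.25, adjusted p = 0.0361).

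Genes of proliferation moved with these groups. Of 24, 23 were called higher in no.1 (median 2.48) and 20 in no.2 (median 1.64), beside 21.4% and 12.1% of all genes. All 24 lay on the higher side of no.1 against no.2, with none called and a median difference of 0.667. Their summed unscaled signal ran from 4800 to 4890 in control, 40300 to 69300 in no.1 and 17400 to 25100 in no.2. On the relative scale the enzyme medians against control were 1.66 in no.1 and 1.98 in no.2, and no enzyme was called between no.1 and no.2. For all 29 members the medians on the relative scale were 0.81 in no.1 and 1.31 in no.2. Scaled to the spike-ins, the medians of the same 29 were 2.67 in no.1 and 2.50 in no.2. The part of proliferation in the changes of the sterol genes was not tested.

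Markers of cell type also moved. Of 11 fibroblast markers measured, 6 were called lower in no.1 and 5 in no.2 on the relative scale, beside 26.4% and 16.2% of all genes. Dcn changed most among them (-3.73, SE 0.44, limma adjusted p = 0.0032, and -2.29, SE 0.44, adjusted p = 0.0172). Col1a1, Col1a2, Col3a1, Col5a1 and Vim were called in neither comparison. The summed signal of all 12 fibroblast markers overlapped between control (180000 to 187000) and no.1 (182000 to 204000) and was lower in no.2 (129000 to 150000). That sum adds unscaled signals of different probes, and S100a4 alone gave 122000 and 128000 of it in the controls, 104000 and 94800 on the no.1 arrays, and 79700 and 53900 in no.2. Of 8 macrophage markers 4 were well above background in each group, with sums of 1540 to 1670 in control, 2760 to 2790 in no.1 and 1710 to 2030 in no.2. Ptprc, Adgre1, Lyz2 and Tyrobp were not well above background on any array, and Cd68, Csf1r, Cd14 and Itgam were on every array. Of 7 adipocyte markers, 4 in control and 3 in each other group were well above background, with sums of 188 to 189, 307 to 408 and 183 to 184, and Adipoq, Plin1 and Cidec were not on any array. Keratinocyte markers counted 3, 2 and 2 of 8 in control, no.1 and no.2 (sums 416 to 440, 831 to 994 and 552 to 661), endothelial markers 0, 2 and 1 of 7 (10.5 to 17.2, 21.4 to 32.1 and 16.2 to 25.6), muscle markers 3, 2 and 2 of 6 (544 to 584, 1090 to 2060 and 835 to 1070), and Schwann markers 1, 0 and 0 of 5 (15.4 to 16.5, 8.58 to 11.7 and 5.68 to 9.31). These sums are unscaled too, and 1 probe gave most of several. Acta1 gave 515 and 557 of the muscle sum in the controls, and 2050 and 1060 on the no.1 arrays. In the controls Trp63 gave 345 and 325 of the keratinocyte sum and Itgam 1260 and 1160 of the macrophage sum. On the relative scale Des (-2.43) and Tnnt3 (-2.03) were called lower in no.1, and Acta1 (0.04) was not. Of 4 adipocyte markers measured, 3 were called lower and 1 higher in no.1. The part of cell composition was not tested beyond these levels.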

How the data were processed

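Total RNA of 6 samples was labelled with Cy3 after Low Input Quick Amp amplification, per the labels' protocols. The deposited scanner files hold intensity values from Feature Extraction 12.1.1.1, per the file headers, and the submitters' processing notes name Agilent Feature Extraction 9.5.1.1. The processed signal is background-subtracted within the array and not normalized between arrays, per the file headers. The series' value table, as the authors deposited it, also holds intensity values. At least 99.9% of these lay within 1% of the quantile-normalized signal (column median 5.16), so its scale and direction are known and its processing is otherwise not given in the sources used here.

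Spots of a probe were averaged, outlier spots left out where others remained, and log2 of the deposited intensity was centred on the array's 75th percentile over 56605 non-control probes. Accessions were matched to symbols in RefSeq (GRCm38.p6, names only, as the headers name mm9), which named 58.3% of probes. Each gene took its probe of highest mean and was tested if the scanner called that probe well above background on each array of 1 group or more. No probe was saturated. limma 3.58.1 (lmFit and eBayes, R 4.3.3) fitted a mean per group on all 6 arrays, with Benjamini-Hochberg adjustment over 23060 genes and calls at 0.05. The fit was tested on simulated data. The number of arrays, 2 a group, limits the precision.

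All 30 members are named, and of the other lists up to 3 called genes of lowest p in each direction. The members and lists were chosen with earlier results of these data known. Alternatives were quantile, median-probe and spike-in scaling, normexp correction (offset 50), the authors' table, probe and filter rules, a replicate block, fewer arrays and leaving out each array. The scanner files give a median and no mean signal, so normexp used the median signal in place of the mean. Deviations of same-numbered arrays correlated at -0.035 and -0.0171 with control and at 0.165 between no.1 and no.2. The labels state no pairing, and it was left out of the fit.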

Additional observations from a re-analysis of the deposited data

Results flagged for a closer look

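The arrays of Mvk lay on opposite sides of control in the 2 tamoxifen groups, with neither change called by limma. Both no.1 arrays lay below both control arrays, with a log2 change of -0.12 (adjusted p = 0.606), and both no.2 arrays lay above them, with a change of 0.39 (adjusted p = 0.149). Set directly against each other, no.1 minus no.2 came to -0.51, which did not pass the threshold (limma adjusted p = 0.282). A second Mvk probe gave -0.51 and -0.14 against control and lay below it in both groups. The no.1 change was positive under other settings, at 0.15 with quantile normalization, 0.31 with the median probe and 0.50 (adjusted p = 0.00312) with normexp correction. Scaled to the spike-ins, both changes were positive, at 1.74 and 1.58.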

How the results depend on the processing

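Of the 22 members called in no.1 against control, 19 kept their sign and 11 their call under all 17 gene-level alternatives (16 for Insig1), and of the 18 called in no.2, 16 and 9 did. The count called higher in no.1 (16) was 26 when scaled to the spike-ins, and the count called lower (6) was 3 with the median probe, 0 with the spike-ins and 3 with the control arrays averaged. In no.2 the count called higher (16) was 10 with the control arrays averaged. The count called lower in no.2 (2) was 0 with the median probe, the spike-ins or averaged controls. Leaving out 1 array gave 11 to 16 higher and 3 to 6 lower in no.1, and 11 to 19 higher and 0 to 3 lower in no.2. The lower count was 3 in no.1 without control array 2 or no.1 array 1, and in no.2 it was 1 without no.2 array 1 and 0 without no.2 array 2 or either control array. Without a filter on dim probes 1 member, Nr1h3, was called lower in no.1 than in no.2. Signs of called members turned only with the spike-ins, for Ebp (1.11), Scap (0.70) and Nr1h2 (0.81) in no.1 and Scap (0.25) and Nr1h3 (0.31) in no.2. The cause was not tested. Over all genes, no.1 against no.2 gave 0 calls, but 2817 higher and 4 lower with the spike-ins, 520 and 7776 without the filter on dim probes, and 2 and 115 without no.1 array 2. Averaging the control arrays left 2260 higher and 2586 lower in no.1 and 577 and 669 in no.2. Members near background, such as Insig1 in control, are limited by signal over background.

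The labels give same-numbered arrays of different groups only a shared number, and the file names of the tamoxifen groups also share the hours, 24 and 48. Their deviations from the group means correlated at -0.035 for control and no.1, -0.0171 for control and no.2, and 0.165 for no.1 and no.2. A fit with the replicate block called 15 members higher and 6 lower in no.1 and 18 higher and 4 lower in no.2. It called none between no.1 and no.2.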
